A study of Mus musculus with 12 samples.

Results

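Transmitter-gated ion channels open when a neurotransmitter binds them, and each is built from several subunits that are encoded by separate genes. The subunit genes of these channels were taken as a gene group from lumbar dorsal root ganglia (DRG) of male mice. The group held every protein-coding gene of the GABA-A, AMPA, kainate, NMDA, delta, nicotinic acetylcholine, glycine and 5-HT3 receptor families, chosen by its gene symbol. Genes such as Grina, which carry similar symbols and encode no subunit, were left out. The annotation lists 60 such genes. Of these, 59 had a row among the 38594 genes with Ensembl IDs, and Gabra6 was not analysed here. A mean of at least 1 count per 1000000 (CPM) over the 12 libraries was reached by 35 members, and 49 members entered the statistical tests. Gabrd, with a mean of 1.06 CPM, was the member just above that limit, and Gabrb1 with 0.987 CPM and Gabre with 0.895 CPM were the members just below it.

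DRG hold the cell bodies of the sensory neurons that carry touch, body position, temperature and pain to the spinal cord. The mice were C57BL/6J males of 6 to 12 weeks, named naive in the labels, and ganglia of lumbar levels L1 to L6 were taken at 4 hours of the day, ZT2, ZT8, ZT14 and ZT20, where zeitgeber time (ZT) counts hours from lights on. The groups therefore shared strain, sex, age range and tissue and, by the labels, differed in the time of collection alone, with 3 libraries of polyadenylated RNA each. Whether a library stands for 1 animal or several is not stated in the labels, so p-values reflect the spread of these libraries alone, and part of that spread may be technical. The library numbers follow the order of the times, so that time of day and any batch of collection or preparation cannot be told apart.

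In sensory neurons these channels stand at both ends of the cell. Glutamate and acetylcholine receptors, with 5-HT3 receptors for serotonin, carry cations into the cell and excite it, while GABA-A and glycine receptors carry chloride. Because sensory neurons keep a high internal chloride level through the cotransporter NKCC1, GABA depolarises them, and GABA-A receptors on their spinal terminals take part in presynaptic inhibition. The series title joins clock genes of nociceptors with excitability, and the question put to the subunit genes was whether their levels differed with the time of day. In whole ganglia, fewer cells of a type and less RNA per cell cannot be told apart.

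All 13 markers of sensory neurons were above 1 CPM, and their summed level lay between 18724 and 19886 CPM in every library. Marker sums ran from 4899 to 6519 CPM for satellite glia, 6007 to 8506 for myelinating Schwann cells and 469 to 820 for fibroblasts. Those of macrophages ran from 56.6 to 92.7 CPM and those of endothelium from 58.8 to 78.4 CPM. Library totals ran between 89.8 and 125.0 in units of 1000000 estimated counts. Of 7 sympathetic neuron markers, 5 had means under 1 CPM, Dbh, Slc6a2, Phox2a and Hand2 among them. The other 2 had means of at least 1 CPM, and the 7 summed to between 127 and 183 CPM in a library. Of the 10 spinal cord markers with values, 9 had means under 1 CPM. The 12 markers of skeletal muscle, which borders the ganglia, were all present, with summed levels of 238.0 to 593 CPM at ZT2, 259 to 609.7 CPM at ZT8, 328 to 691 CPM at ZT14 and 195 to 1252 CPM at ZT20. The deposited values behave as coverage rather than as read numbers, so that CPM can be compared between genes of different length, as is done below.

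**Figure D1:**
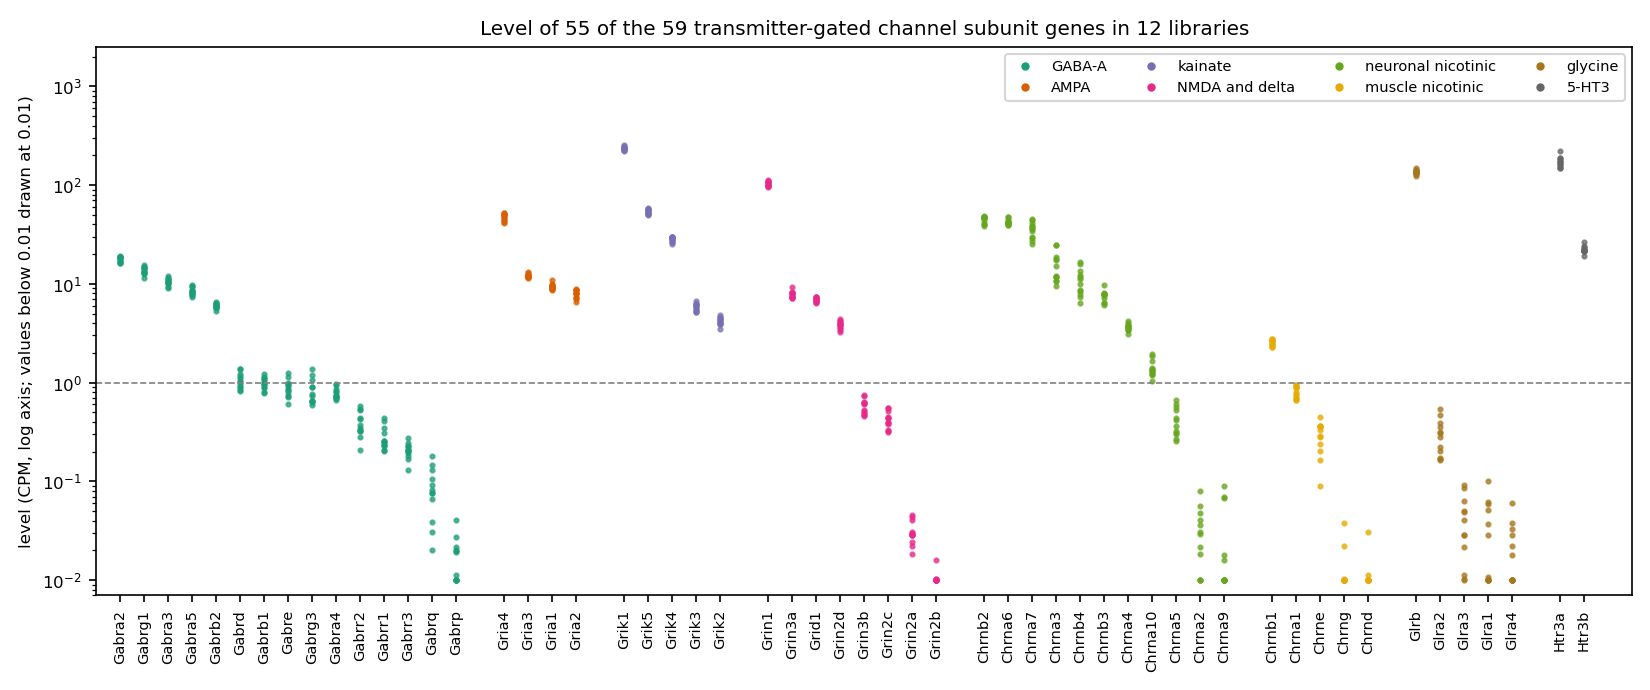
Level in CPM (log axis) of 55 of the 59 subunit genes, ordered by mean within its family, with 1 point per library and the limit of 1 CPM dashed. Grik1, Htr3a, Glrb and Grin1 lead their families with means of 235, 172, 136 and 103 CPM, and 24 genes have a mean below the line.

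Among the glutamate receptor genes, a kainate subunit was the most abundant. Grik1, which encodes GluK1, the kainate receptor subunit known from small sensory neurons, was the most abundant of all members and measured 226, 239 and 242 CPM at ZT2, 236, 247 and 239 at ZT8, 239, 219 and 231 at ZT14, and 229, 225 and 252 at ZT20. It made up 71.8% ± 0.910 of the summed kainate level (SD, n = 12). Its libraries overlapped across all 4 times, and with a coefficient of variation of 4.02% it also varied least among the 35 members above 1 CPM. Grik5 and Grik4 encode the high-affinity subunits GluK5 and GluK4, which need a partner such as GluK1 to form a channel. Grik5 stood at 53.4, 55.6 and 56.98 CPM at ZT2, 51.9, 51.00 and 52.4 at ZT8, 59.2, 55.4 and 51.5 at ZT14, and 49.2, 55.2 and 57.3 at ZT20. Grik4 stood at 29.1, 28.1 and 29.99 CPM at ZT2, 29.7, 30.05 and 27.6 at ZT8, 26.7, 26.8 and 28.4 at ZT14, and 25.5, 29.8 and 28.8 at ZT20. Grik3 and Grik2, the other principal kainate subunits, averaged 5.86 and 4.21 CPM.

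Among AMPA receptor genes, Gria4 was the most abundant. It encodes GluA4, a subunit of rapid kinetics, and measured 51.4, 50.00 and 47.3 CPM at ZT2, 52.6, 49.8 and 42.3 at ZT8, 44.1, 49.8 and 51.8 at ZT14, and 40.9, 45.9 and 44.2 at ZT20, or 61.7% ± 1.40 of the summed AMPA level. Its ZT20 libraries lay below those of ZT2 without overlap (edgeR adjusted p = 0.706), and both groups overlapped with ZT8 and ZT14. Gria3 measured 11.9, 11.7 and 12.4 CPM at ZT2, 12.3, 13.2 and 11.7 at ZT8, 11.9, 12.9 and 12.4 at ZT14, and 11.6, 11.3 and 11.8 at ZT20. Gria1 measured 8.59, 8.81 and 9.86 CPM at ZT2, 9.37, 10.8 and 9.47 at ZT8, 8.83, 9.61 and 9.15 at ZT14, and 9.01, 9.68 and 9.54 at ZT20. Its ranges overlapped between all 4 times, and so did those of Gria3 apart from ZT20 and ZT14. Gria2, whose edited product makes AMPA channels nearly impermeable to calcium, was the least abundant of the 4 with 7.91 ± 0.728 CPM (SD, n = 12), 10.3% ± 0.465 of the family.

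For NMDA receptors the obligatory subunit was far more abundant than any of its partners. Grin1, which encodes the glycine-binding GluN1, measured 101, 95.5 and 107 CPM at ZT2, 97.3, 97.9 and 109.8 at ZT8, 107, 105 and 100.2 at ZT14, and 107, 99.2 and 113 at ZT20. Of the glutamate-binding GluN2 genes, Grin2d averaged 3.83 ± 0.333 CPM, Grin2c 0.423, Grin2a 0.0308 and Grin2b 0.00621 CPM, and Grin2b was listed at 0 in 5 libraries. Grin2a and Grin2b, the main GluN2 genes of the adult forebrain, thus lay below 0.05 CPM in every library. Grin3a, whose GluN3A product lowers calcium permeability, measured 7.22, 8.01 and 9.29 CPM at ZT2, 7.27, 7.77 and 7.61 at ZT8, 7.13, 8.34 and 7.37 at ZT14, and 8.04, 8.04 and 8.10 at ZT20. Grid1, which encodes a delta receptor of synapse organisation, measured 7.40, 6.43 and 7.13 CPM at ZT2, 7.39, 7.23 and 6.51 at ZT8, 6.90, 6.50 and 6.98 at ZT14, and 6.68, 7.31 and 6.87 at ZT20. Exons of Grin1 share 1307 bases with the antisense gene Grin1os. The sources used here do not give the strand handling of the kit, so reads of such overlapping genes on opposite strands cannot be told apart.

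Of the 11 neuronal nicotinic receptor genes, 8 were above 1 CPM. Chrnb2, the common beta subunit of neuronal nicotinic receptors, measured 46.9, 40.4 and 45.9 CPM at ZT2, 46.9, 48.8 and 40.5 at ZT8, 43.7, 45.9 and 47.3 at ZT14, and 38.5, 47.6 and 47.4 at ZT20. Its exons share 1365 bases with Adar on the opposite strand, which averaged 28.3 CPM. Chrna6, an alpha subunit that combines with beta2 and beta3, measured 39.1, 41.7 and 44.5 CPM at ZT2, 40.9, 42.8 and 47.7 at ZT8, 41.03, 39.3 and 41.2 at ZT14, and 42.5, 41.4 and 47.6 at ZT20. Chrna7, whose product forms channels by itself, measured 45.1, 35.5 and 38.1 CPM at ZT2, 41.7, 44.7 and 27.1 at ZT8, 29.4, 38.9 and 36.9 at ZT14, and 25.6, 34.2 and 29.5 at ZT20. Chrnb2 overlapped between all 4 times, Chrna6 between all but ZT20 and ZT14, and Chrna7 was the most spread of these genes. Chrna3 and Chrnb4, the pair that forms the main receptor of autonomic ganglia, averaged 15.4 and 10.9 CPM, and the accessory subunit gene Chrnb3 averaged 7.57 CPM. Chrna4, the most common brain partner of beta2, averaged 3.66 CPM. Chrna5, Chrna2 and Chrna9 lay below 1 CPM, with means of 0.421, 0.0299 and 0.0218 CPM.

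Subunits of the muscle nicotinic receptor were low. Chrnb1 measured 2.79, 2.57 and 2.45 CPM at ZT2, 2.59, 2.69 and 2.38 at ZT8, 2.31, 2.38 and 2.78 at ZT14, and 2.70, 2.28 and 2.73 at ZT20 and made up most of their summed level. Chrna1 averaged 0.802 CPM, Chrne 0.291, Chrng 0.00661 and Chrnd 0.00423 CPM, with Chrng listed at 0 in 8 libraries and Chrnd in 9. Chrna1, the subunit that binds acetylcholine in muscle, had r = -0.05 and rho = 0.12 with the mean log2 level of the muscle markers, called the muscle score here (12 libraries; permutation p = 0.89 and 0.71, Benjamini-Hochberg 0.92 and 0.779 over the 53 relations computed; r = -0.13 without the 2 libraries farthest from the median score).

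Of the serotonin channel, Htr3a and Htr3b were the members with rows. Htr3a encodes the subunit that can form a channel alone, and it measured 159, 181 and 186 CPM at ZT2, 152, 150.2 and 189.9 at ZT8, 168, 173 and 149 at ZT14, and 219, 162 and 176 at ZT20. Htr3b, which needs 5-HT3A to reach the surface, measured 21.5, 21.5 and 23.4 CPM at ZT2, 21.97, 22.3 and 24.1 at ZT8, 21.7, 22.1 and 19.3 at ZT14, and 26.5, 21.5 and 22.7 at ZT20. Htr3a made up 88.4% ± 0.671 of their sum (SD, n = 12).

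The 18 GABA-A genes summed to 194 ± 9.18 CPM (SD, n = 12), and 9 of them were above 1 CPM. Alpha subunits complete the receptor and set its response to benzodiazepines. Gabra2 measured 18.8, 18.2 and 18.8 CPM at ZT2, 18.5, 19.1 and 17.5 at ZT8, 16.3, 18.3 and 18.7 at ZT14, and 16.3, 17.01 and 16.5 at ZT20. Gabra3 measured 10.5, 11.5 and 12.1 CPM at ZT2, 9.32, 9.10 and 10.8 at ZT8, 10.3, 11.1 and 10.97 at ZT14, and 10.5, 10.03 and 10.3 at ZT20. Gabra2 had all its ZT20 libraries below those of ZT2 and of ZT8. Gabrg1, a gamma subunit gene, measured 15.4, 14.4 and 13.7 CPM at ZT2, 14.7, 13.1 and 13.3 at ZT8, 12.6, 14.8 and 14.5 at ZT14, and 11.4, 12.7 and 13.1 at ZT20. Gabra5 and Gabrb2 averaged 8.44 and 5.999 CPM, and the extrasynaptic subunit gene Gabrd 1.06 CPM. The rho subunits Gabrr1, Gabrr2 and Gabrr3, known from the retina, averaged 0.281, 0.391 and 0.206 CPM.

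Glycine receptor genes showed the sharpest split between subunits. Glrb, the beta subunit that ties the receptor to the scaffold gephyrin and needs an alpha partner to conduct, measured 139.5, 141 and 133 CPM at ZT2, 148, 139.7 and 138 at ZT8, 125, 143 and 133 at ZT14, and 130.0, 133 and 134 at ZT20, which was 99.7% ± 0.114 of the family's sum. The alpha subunit genes were near the bottom of the range: Glra2 averaged 0.299 CPM, and Glra3, Glra1 and Glra4 averaged 0.0407, 0.0289 and 0.0174 CPM. Glra1 and Glra4 were each listed at 0 in 5 libraries.

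Several members lie beside each other in the genome (GRCm38.p6), and neighbours were unlike in level in some places and alike in others. On chromosome 9, Chrna5 (54980880 to 55007779) averaged 0.421 CPM, next to Chrna3 (55010111 to 55026562) with 15.4 CPM and Chrnb4 (55028154 to 55048779) with 10.9 CPM. Chrnb3 and Chrna6 on chromosome 8, 3482 bases apart, averaged 7.57 and 42.5 CPM. On chromosome 3, Gria2 with 7.91 CPM neighbours Glrb with 136 CPM. On chromosome 5, by contrast, Gabrg1 and Gabra2 averaged 13.6 and 17.8 CPM, and Gabra4 and Gabrb1 averaged 0.778 and 0.987 CPM.

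No subunit gene passed a test of time of day. In edgeR's quasi-likelihood test of any difference between the 4 times, with Benjamini-Hochberg adjustment over all 25809 genes tested, 0 of the 49 members passed 0.05, where 0.0504% of all genes did. At an unadjusted p under 0.05 there were 2 members, Glra2 among them, which is 4.08% of the 49 beside 6.19% of all genes. DESeq2 called 0 members, against 1.15% of all genes, and limma-trend 0 against 0.0736%.

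The test for a 24-h component, a cosine of free height and peak time through the 4 times, gave the same count. edgeR called 0 members, where 0.0659% of all genes were called, DESeq2 called 0 (0.632% of all genes) and limma-trend 0 (0.0659%). At an unadjusted p under 0.05 there were 2 members, Chrnb3 among them, 4.08% of those tested, beside 5.2% of all genes. The fitted amplitude, the log2 distance from the mean to the peak, had a median of 0.075 over the 49 members and 0.096 over all genes tested. Over the 35 members above 1 CPM the median was 0.070, and over all 16259 tested genes above 1 CPM it was 0.056. The largest amplitude among these 35 was that of Chrna3, 0.27 ± 0.19 (SE), followed by Chrnb4 with 0.23 ± 0.17 and Chrna7 with 0.19 ± 0.09. Grik1 had an amplitude of 0.02 ± 0.02 and Grin1 of 0.04 ± 0.03. Over all 49 members the largest amplitude was 0.52, in a member under 1 CPM.

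The 19 clock genes, measured in the same libraries, give a scale for these amplitudes. Their median was 0.208, and edgeR called 8 of them in the 24-h test. Arntl, which encodes the clock activator BMAL1, had an amplitude of 0.86 ± 0.06 (edgeR adjusted p = 0.000399), at a mean level of 4.52 CPM that lies below those of 28 members.

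**Figure D2:**
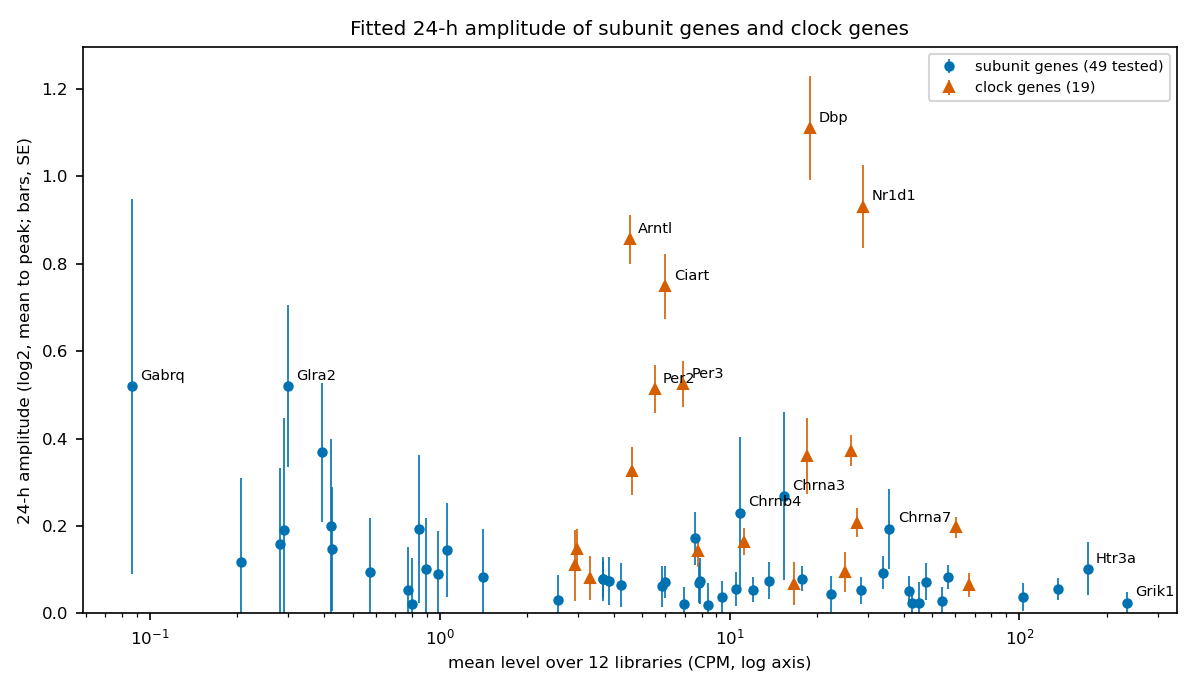
Fitted 24-h amplitude (log2, mean to peak; bars, SE) against mean level (CPM, log axis) for the 49 tested subunit genes (circles) and the 19 clock genes (triangles). Subunit genes above 1 CPM stay at or below 0.27, the value of Chrna3, and those under 1 CPM reach 0.52. The clock genes have a median of 0.208, with Arntl at 0.86 and Dbp at 1.11.

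Comparisons of pairs of times likewise held 0 called members. In edgeR, 0.0465% of all genes passed for ZT14 against ZT2, 0.0232% for ZT20 against ZT8, 0.0194% for ZT8 against ZT2, 0% for ZT14 against ZT8, 0.0426% for ZT20 against ZT14 and 0.00387% for ZT20 against ZT2. DESeq2 called 0 members in each of the 6 as well, and, in the same order of pairs, 0.411%, 0.263%, 0.333%, 0.407%, 0.442% and 0.322% of all genes. limma-trend also called 0 members in each, and 0.062%, 0.0232%, 0.0271%, 0%, 0.0542% and 0.00387% of all genes. At an unadjusted p under 0.05, edgeR gave 2 members for ZT14 against ZT2 (Chrnb3 and Glra2, 4.08% of 49, beside 5.19% of all genes) and 3 for ZT20 against ZT8 (Gabra2 among them, 6.12% beside 5.28%). It gave 3 for ZT8 against ZT2 (Chrnb3, Gabra3 and Glra2, 6.12% beside 5.78%), 0 for ZT14 against ZT8 (6.3% of all genes) and 1 for ZT20 against ZT14 (2.04% beside 6.28%). All of these differences ran towards the later time being lower. That direction, at the same limit, was shown by 2.29% of all genes for ZT14 against ZT2, 2.41% for ZT20 against ZT8, 2.88% for ZT8 against ZT2, 2.8% for ZT14 against ZT8 and 3.14% for ZT20 against ZT14. The comparisons share libraries, so their counts are not independent of each other.

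The intervals of these differences were narrow for most members. For ZT14 against ZT2, the 95% interval of the log2 fold change lay within ±0.5, a change of 1.41-fold, for 29 of the 35 members above 1 CPM. For ZT20 against ZT8 it did so for 30 of 35. The exceptions were Gabrd, Chrna7, Chrna3, Chrnb4 and Chrna10 in both, with Chrnb3 in addition for ZT14 against ZT2. For Chrna3 the interval ran from -1.20 to 0.51 in the first comparison and from -0.44 to 1.27 in the second, which takes in changes of more than 2-fold. Over the 35 members, the log2 fold change had a median of -0.05 (ZT14 against ZT2) and of -0.03 (ZT20 against ZT8), beside medians of 0.0020 and 0.0026 over all tested genes above 1 CPM.

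**Figure D3:**
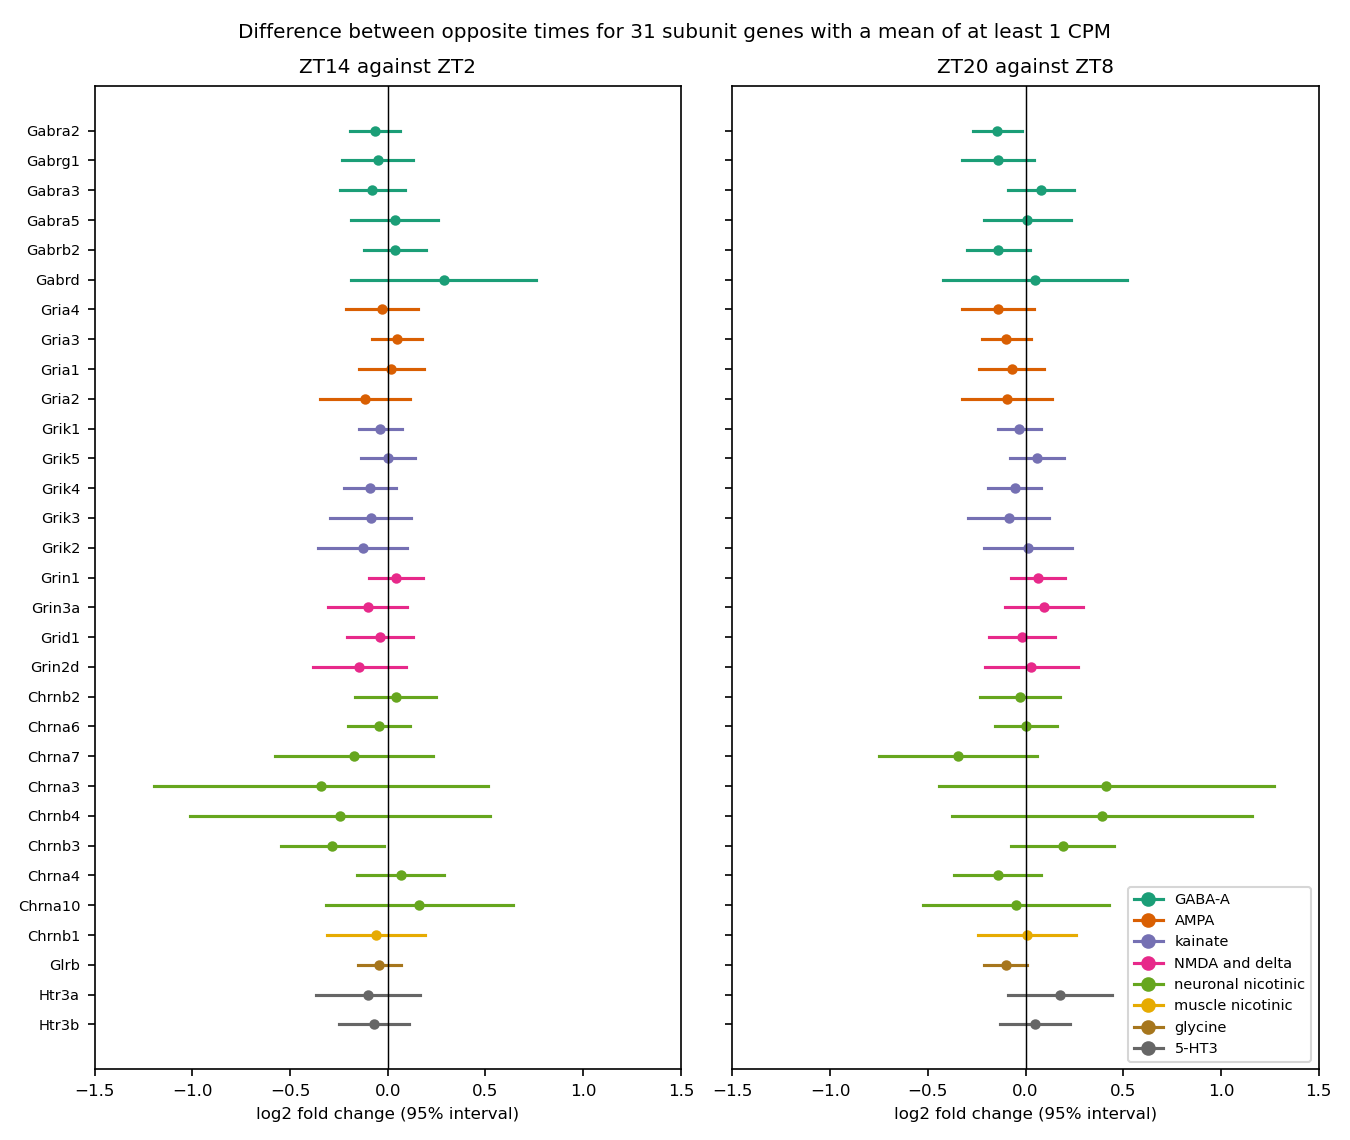
Log2 fold change with its 95% interval for 31 of the 35 subunit genes above 1 CPM, coloured by family, with ZT14 against ZT2 on the left and ZT20 against ZT8 on the right. Most intervals are short and include 0, and those of Chrna3, Chrnb4, Chrna7, Gabrd and Chrna10 reach past 0.5 on at least 1 side in both panels.

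Several GABA-A genes had their lowest mean at ZT20. Gabra2 measured 16.3, 17.01 and 16.5 CPM at ZT20, against 18.8, 18.2 and 18.8 CPM at ZT2, and these groups did not overlap, although 1 ZT14 library was as low as those of ZT20. Its log2 fold change for ZT20 against ZT2 was -0.16 ± 0.06 (SE; 95% interval -0.29 to -0.04), with an edgeR adjusted p of 0.682. Of the 35 members above 1 CPM, 13 had their lowest mean at ZT20, which is 37.1% of them, beside 27.7% of all 16259 tested genes above 1 CPM. They included 6 of the 9 GABA-A genes and Gria2, Gria3 and Gria4. This count was not tested. Summed over the family, GABA-A genes reached 199 ± 1.85 CPM (ZT2), 198 ± 8.57 CPM (ZT8), 197 ± 8.27 CPM (ZT14) and 182.5 ± 6.03 CPM (ZT20; SD, n = 3 each).

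For ZT20 against ZT2 the unadjusted counts were the highest of the 6 pairs. There were 6 members with an unadjusted p under 0.05, Gabra2, Gabrg1, Grik3 and Chrna7 among them, which is 12.2% of the 49 members beside 7.05% of all genes, and all 6 lay lower at ZT20, a direction that 3.23% of all genes showed. Their log2 fold changes ran from -0.41 ± 0.18 (SE) for Chrna7 to -0.16 ± 0.06 for Gabra2, with edgeR adjusted p-values of 0.672 to 0.704. Without ZT20 replicate 1, the library of the highest muscle score, the count was 2 members (4.08%), beside 4.92% of all genes. With the muscle score as a covariate in the same fit there were 8 members (16.3%), beside 13% of all genes.

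**Figure D4:**
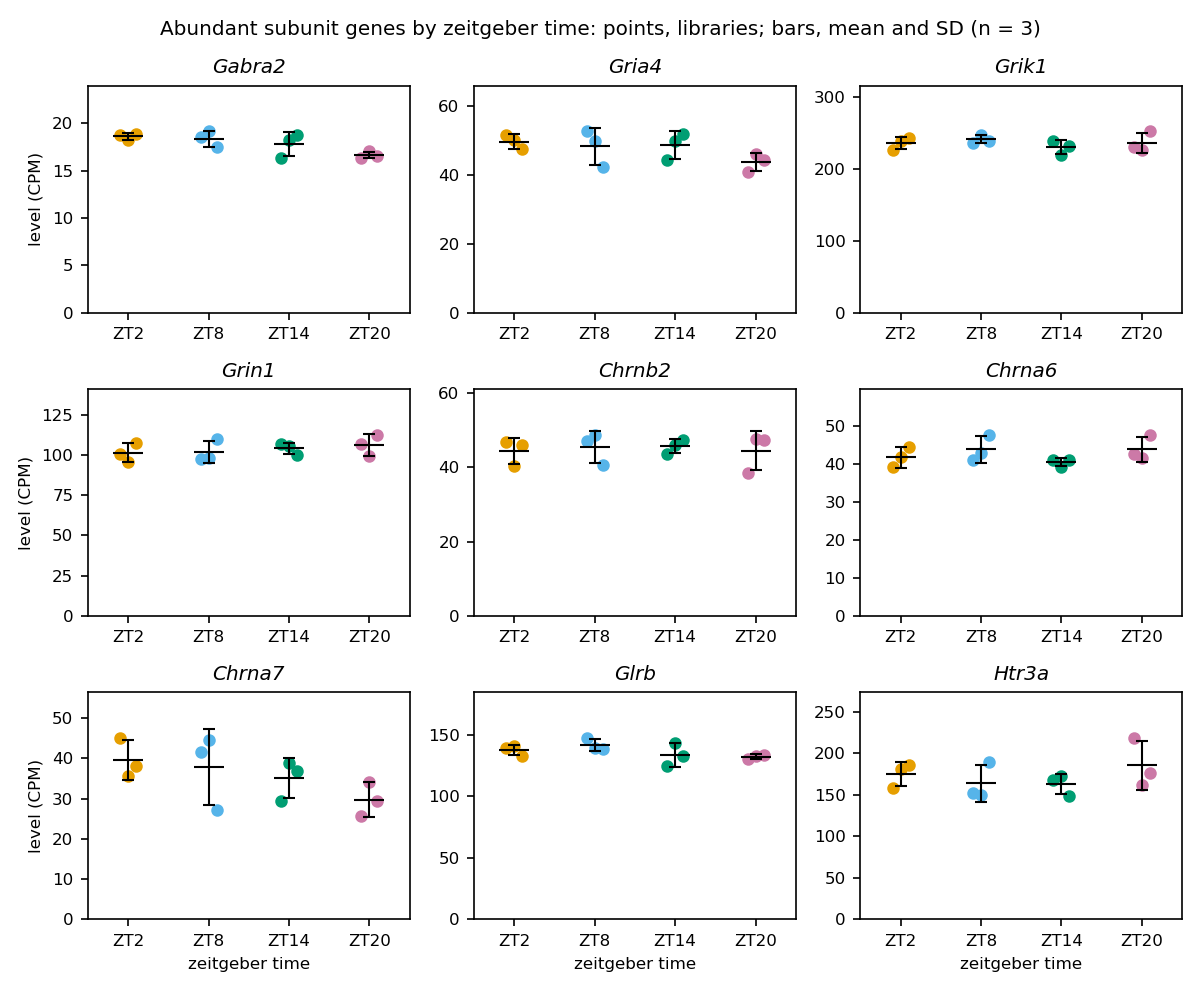
Level in CPM of 9 abundant subunit genes at each zeitgeber time, with points for the libraries and bars for the mean and SD (n = 3). Gabra2 at ZT20 lies at 16.3 to 17.01 CPM, below every library of ZT2 and ZT8, whereas the points of Grik1, Grin1, Chrnb2 and Htr3a overlap between the times.

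The other members with low unadjusted p included genes of the acetylcholine and glycine families. Chrnb3 measured 6.06, 7.87 and 7.12 CPM at ZT14, against 7.72, 8.11 and 9.80 CPM at ZT2, and these groups overlapped. Its log2 fold change was -0.28 ± 0.12 (SE; 95% interval -0.55 to -0.02), with an edgeR adjusted p of 0.925. Glra2 measured 0.163, 0.359 and 0.202 CPM at ZT14, against 0.391, 0.539 and 0.465 CPM at ZT2, without overlap. Its log2 fold change was -0.94 ± 0.37 (SE; 95% interval -1.75 to -0.13) (edgeR adjusted p = 0.923), at levels far below 1 CPM. Like Chrnb3, Glra2 also lay lower at ZT8 than at ZT2 at an unadjusted p under 0.05 (edgeR adjusted p = 0.743 for Glra2). Gabra3 measured 9.32, 9.10 and 10.8 CPM at ZT8, against 10.5, 11.5 and 12.1 CPM at ZT2, with overlap and an edgeR adjusted p of 0.782.

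Promoters of the members were searched for the E-box CACGTG, the sequence that CLOCK and BMAL1 bind, since the comparison is one of time. RefSeq windows of 300 bases (GRCm38.p6, 250 before to 50 after the start) matched 41 of the 59 members. Since a gene can have more than 1 start, these members had 46 windows. The E-box was found, on either strand since it reads the same on both, in 2 of the 46 windows (4.35%), those of Chrna7 and Grin1. It stood in 7.15% of all 32851 windows and in 6 of the 21 windows of the clock genes. Another motif, the GC box GGGCGG on either strand, was in 21 of the 46 windows (45.7%) and in 35.7% of all windows. The Chrna7 window (chr7:63212477-63212776, minus strand) and the Grin1 window (chr2:25319138-25319437, minus strand) are shown 5′ to 3′ as the members with an E-box, with E-boxes and GC boxes in capitals.
Chrna7: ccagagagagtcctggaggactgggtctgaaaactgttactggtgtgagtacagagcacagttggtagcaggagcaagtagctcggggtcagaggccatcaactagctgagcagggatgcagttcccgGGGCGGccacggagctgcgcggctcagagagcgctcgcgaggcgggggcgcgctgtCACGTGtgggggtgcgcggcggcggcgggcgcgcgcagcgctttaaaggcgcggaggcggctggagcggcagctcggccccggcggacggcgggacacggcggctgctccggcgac
Grin1: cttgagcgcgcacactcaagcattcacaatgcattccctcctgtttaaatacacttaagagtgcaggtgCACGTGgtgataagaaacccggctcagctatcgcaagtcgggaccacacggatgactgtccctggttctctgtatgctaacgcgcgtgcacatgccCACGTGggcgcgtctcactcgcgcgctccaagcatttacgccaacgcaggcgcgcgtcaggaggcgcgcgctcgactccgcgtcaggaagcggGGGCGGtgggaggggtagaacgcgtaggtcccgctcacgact
Neither gene was called in a test of time: the 24-h amplitude was 0.19 ± 0.09 for Chrna7 (edgeR adjusted p = 0.991) and 0.04 ± 0.03 for Grin1 (edgeR adjusted p = 0.9998). A match of letters is a description of the window, and a window without one says nothing of binding elsewhere.

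By edgeR's estimate, members varied within times about as much as other genes did. The spread within times that edgeR estimated had a median of 9.08% for the 35 members above 1 CPM. It was 9.13% for all tested genes above 1 CPM. The coefficient of variation over the 12 libraries had a median of 7.79% for the 35 members above 1 CPM, and 28 were under 10%. Only Chrna3, Chrnb4 and Chrna10 exceeded 20%, and these were followed up after their values were seen. Chrna3 measured 10.7, 17.3 and 24.6 CPM at ZT2, 9.41, 10.8 and 18.5 at ZT8, 12.1, 17.8 and 11.6 at ZT14, and 24.7, 11.6 and 15.3 at ZT20. Chrnb4 measured 7.90, 11.9 and 16.7 CPM at ZT2, 6.46, 7.41 and 13.4 at ZT8, 9.96, 12.4 and 8.50 at ZT14, and 16.02, 8.67 and 11.1 at ZT20. At each of the 4 times, 1 library stood well above another for both genes, with a largest to smallest ratio of 2.63 for Chrna3 and 2.59 for Chrnb4 over the 12.

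Chrna3 and Chrnb4 moved together from library to library. Their log2 levels correlated with r = 0.984 and rho = 0.986 over 12 libraries, and r was 0.986 after the mean of each time was subtracted. No p is given, since the pair was picked for its likeness. The ratio of their levels stayed between 1.22 and 1.54. Chrna3 is known in mouse DRG as a marker of nociceptors that respond to mechanical stimuli only in inflammation. The genes read in the same direction and lie 1592 bases apart. Their promoter windows (RefSeq, GRCm38.p6; Chrna3 chr9:55026513-55026812 and Chrnb4 chr9:55048495-55048794, both minus strand) are shown 5′ to 3′ because the pair moved together, with the GC box in capitals, here read on the opposite strand as CCGCCC.
Chrna3: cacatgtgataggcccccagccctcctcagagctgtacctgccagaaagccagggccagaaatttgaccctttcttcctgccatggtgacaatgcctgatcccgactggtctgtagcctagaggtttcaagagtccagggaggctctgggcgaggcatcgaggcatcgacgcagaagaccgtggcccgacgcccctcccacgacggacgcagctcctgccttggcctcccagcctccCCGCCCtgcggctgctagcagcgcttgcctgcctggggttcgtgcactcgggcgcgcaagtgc
Chrnb4: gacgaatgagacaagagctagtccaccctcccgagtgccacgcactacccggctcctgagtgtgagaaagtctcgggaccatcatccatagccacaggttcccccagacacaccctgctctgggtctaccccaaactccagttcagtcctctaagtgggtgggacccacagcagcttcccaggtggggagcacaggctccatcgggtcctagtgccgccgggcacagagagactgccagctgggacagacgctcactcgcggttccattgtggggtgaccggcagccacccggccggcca
The Chrna3 window holds 1 GC box and the Chrnb4 window none, and neither holds an E-box.

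The same libraries were ordered by a gene of body position. Hoxc11, a posterior Hox gene that marks tail-side segments in development, measured 2.01, 4.45 and 6.10 CPM at ZT2, 1.15, 1.76 and 5.42 at ZT8, 2.37, 3.64 and 2.03 at ZT14, and 8.46, 2.15 and 3.47 at ZT20. Of all 25809 tested genes it was the fourth nearest to Chrna3, and it was picked for that after the values of Chrna3 had been seen, so its relations to the members are given as a description with no p. Chrna3 had r = 0.974 with it and Chrnb4 r = 0.975 (rho = 0.986 for both; log2 levels, 12 libraries). Without the 2 libraries farthest from the Hoxc11 median, r was 0.971 for Chrna3 and 0.969 for Chrnb4.

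Of the 49 members, 7 (14.3%) had both r and rho of at least 0.7 in size with Hoxc11, a limit also set after the values were seen, beside 2.34% of all tested genes and 3.06% of those above 1 CPM. The 7 include Chrna3, for which Hoxc11 was picked, and Chrnb4, which moved with Chrna3, so the 14.3% is partly fixed by that choice. Of the 7, 5 had a positive sign. Htr3a had r = 0.945 and rho = 0.937, and r was 0.950 without the 2 farthest libraries. Gabrg3, a gamma subunit gene just under 1 CPM, measured 0.651, 0.909 and 1.20 CPM at ZT2, 0.632, 0.591 and 1.07 at ZT8, 0.651, 0.907 and 0.736 at ZT14, and 1.37, 0.653 and 0.764 at ZT20. It had r = 0.944 and rho = 0.965, and r was 0.957 without the 2 farthest. Gabrb1 had r = 0.834 and rho = 0.818, and r was 0.774 without the 2 farthest.

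The members of opposite sign were Chrnb2 and Chrna4, the subunits of the main brain nicotinic receptor. Chrnb2 had r = -0.74 and rho = -0.74, and r was -0.63 without the 2 farthest libraries. Chrna4 had r = -0.73 and rho = -0.80, and r was -0.61 without them. The median r of the 49 members was 0.118. ZT20 replicate 1 had both the highest Hoxc11 level and the highest muscle score, and r after subtracting the mean of each time was 0.972 for Chrna3, 0.949 for Htr3a and 0.945 for Gabrg3. Hoxd11, another posterior Hox gene, ranged between 7.41 and 20.5 CPM. The more anterior Hoxc8 ranged between 9.95 and 12.1 CPM, and Hoxa9 between 55.6 and 66.7 CPM. These genes are examples from a larger set of Hox genes looked at. Their ranges do not show whether they follow the library order of Hoxc11. The labels give all libraries the same lumbar levels, and whether their make-up by level differed was not tested.

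**Figure D5:**
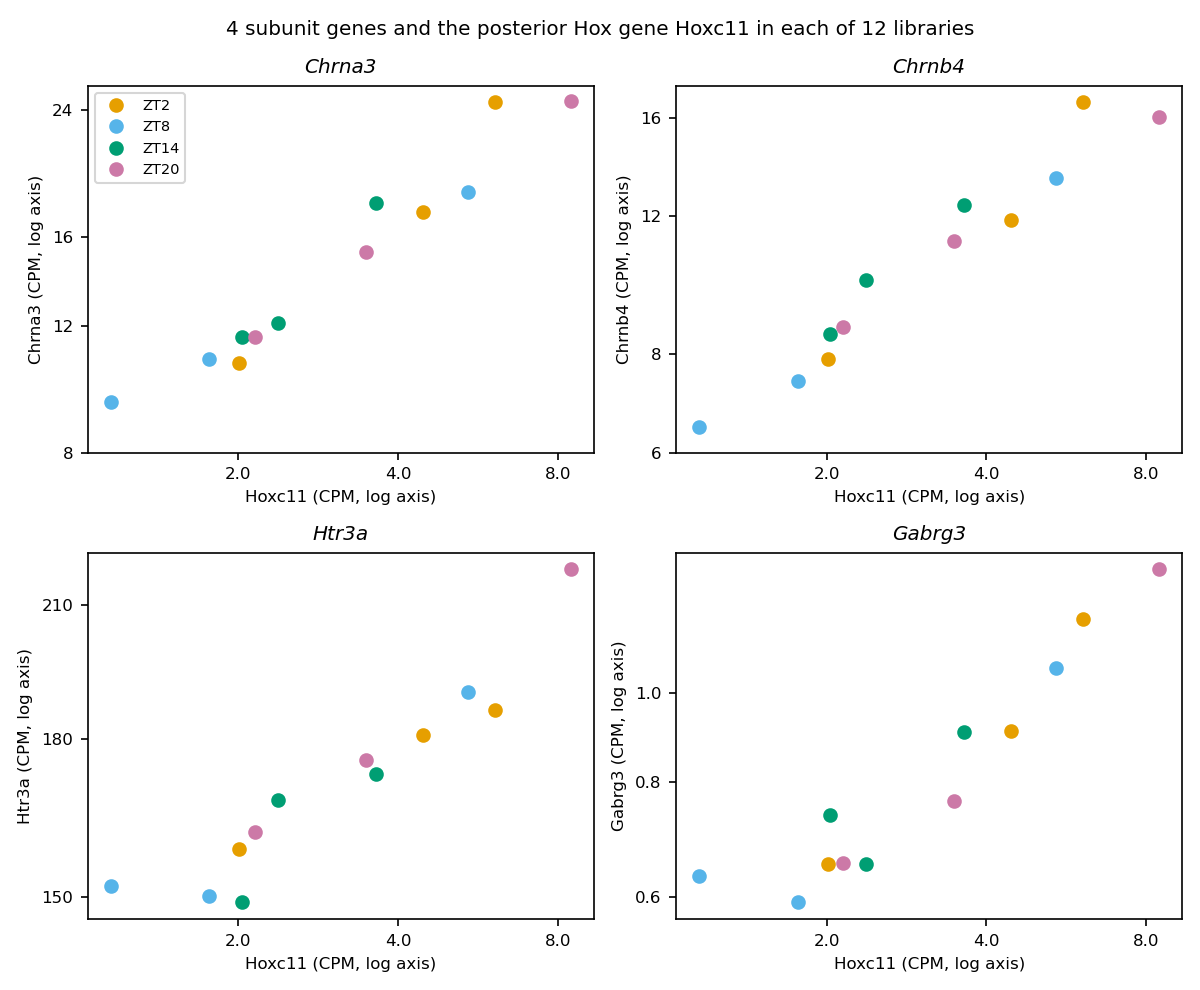
Level in CPM (log axes) of Chrna3, Chrnb4, Htr3a and Gabrg3 against Hoxc11 in each of the 12 libraries, coloured by zeitgeber time. In all panels the levels rise with Hoxc11, libraries of every time are mixed along the axis, and Hoxc11 spans 1.15 to 8.46 CPM.

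Chrna10, known as the partner of the alpha9 subunit in hair cells of the inner ear, varied in another way. It measured 1.30, 1.31 and 1.03 CPM at ZT2, 1.38, 1.34 and 1.97 at ZT8, 1.67, 1.21 and 1.20 at ZT14, and 1.88, 1.24 and 1.42 at ZT20. Its 3 highest libraries, ZT8 replicate 3, ZT20 replicate 1 and ZT14 replicate 1, were also the 3 highest in the muscle score. The correlation with that score was r = 0.682 and rho = 0.587. Without the 2 libraries farthest from the median score r was 0.631, and after the mean of each time was subtracted r was 0.927. Its exons share 1025 bases with the muscle gene Art1 on the opposite strand. Art1 had r = 0.846 and rho = 0.846 with the same score (r = 0.725 without the 2 farthest libraries). No p is given, since Chrna10 was followed up after its values were seen and Art1 was picked for this overlap. Reads of Art1 counted for Chrna10 cannot be told apart from its own in this table. Chrna9, with which it pairs, was listed at 0 in 7 libraries.

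Chrna7 varied by 18.6% between libraries, the next highest after these. Its 3 lowest libraries, ZT20 replicate 1 with 25.6 CPM, ZT8 replicate 3 with 27.1 CPM and ZT14 replicate 1 with 29.4 CPM, were those with the 3 lowest normalization factors, 0.970 to 0.979, and the 3 highest muscle scores. At ZT20 it averaged 29.8 ± 4.33 CPM, against 37.8 ± 9.39 CPM at ZT8 (SD, n = 3 each), with a log2 fold change of -0.35 ± 0.18 (SE; 95% interval -0.75 to 0.06) and an edgeR adjusted p of 0.950. ZT20 replicate 2, with the lowest muscle score of 1.52, had 34.2 CPM. The highest Chrna7 level, 45.1 CPM, was in ZT2 replicate 1, at a score of 4.54. Chrna7 also had r = -0.64 and rho = -0.66 with Hoxc11. The part of muscle RNA in the spread of Chrna7 was not tested.

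By likeness over the 12 libraries, the tested genes nearest to Grik1 were AY074887 (r = 0.882), Gm14018 (r = 0.860) and 9130002K18Rik (r = 0.858), with mean levels of 0.147, 0.144 and 1.15 CPM. For Chrna3 they were Kcnk2 (r = 0.987), Chrnb4 (r = 0.984) and Penk (r = 0.974). With 25809 genes searched and 12 libraries that share depth and tissue make-up, these values describe the libraries.

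Genes that work with the channels held 0 calls in edgeR. Among 118 partner, transporter, enzyme and metabotropic receptor genes in 7 lists, 109 were tested, and edgeR called 0 for any difference between the times, with 8 at an unadjusted p under 0.05 (7.34%, beside 6.19% of all genes). These 8 included 2 of the 11 genes of the chloride gradient and 4 of the 26 tested genes for transmitter synthesis, uptake and breakdown. DESeq2 called 3 (2.75%, beside 1.15% of all genes), Clcn2 and Glul among them, and limma-trend 0, beside 0.0736% of all genes.

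Auxiliary subunits and scaffolds of the glutamate receptors did not pass. Cacng7, Cpt1c, Grina and Dlg4 are named here as the most abundant genes of their lists, so their levels do not describe the other genes. Of AMPA receptor partners, Cacng7, a TARP auxiliary subunit, averaged 157 ± 7.16 CPM (SD, n = 12) and Cpt1c 66.02 ± 1.30 CPM, 0 of 17 passed, and the lowest unadjusted p was that of the cornichon gene Cnih2 at 64.9 ± 10.5 CPM (ZT2), 51.1 ± 8.56 CPM (ZT8), 68.95 ± 7.05 CPM (ZT14) and 77.4 ± 16.8 CPM (ZT20) (SD, n = 3 each; edgeR adjusted p = 0.778). Of 9 genes listed as kainate and NMDA receptor partners 0 passed. Grina, which encodes no subunit, averaged 846 CPM, and Dlg4, which encodes the scaffold PSD-95, 78.2 CPM. Dlg1 had the lowest unadjusted p of that list (edgeR adjusted p = 0.867). Of 12 GABA-A and glycine receptor partners 0 passed, with the trafficking genes Gabarapl1 and Gabarap at 766 and 321 CPM and Rdx at an edgeR adjusted p of 0.898. Of 12 nicotinic receptor partners 0 passed; Lynx1, a toxin-like brake on nicotinic receptors, averaged 308 CPM and Tmem35a, the chaperone NACHO, 92.3 CPM. Dok7 had the lowest unadjusted p there, at 8.24 ± 0.183 CPM (ZT2), 8.08 ± 0.264 CPM (ZT8), 9.21 ± 0.328 CPM (ZT14) and 8.84 ± 0.179 CPM (ZT20) (edgeR adjusted p = 0.692).

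Among the 11 genes of the chloride gradient, Stk39 and Wnk1, kinases of the cation-chloride cotransporters, averaged 123 and 70.2 CPM. Clcn2, a chloride channel, came nearest to a call, at 25.5, 26.4 and 26.4 CPM at ZT14, against 20.3, 20.1 and 20.4 CPM at ZT2. These groups did not overlap, and the log2 fold change of 0.37 ± 0.06 (SE; 95% interval 0.24 to 0.50) had an edgeR adjusted p of 0.0812 and passed in DESeq2, which called 0.411% of all genes in that comparison.

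Of the genes for transmitter synthesis, uptake and breakdown, 26 were tested. Glul, the glutamine synthetase of satellite glia, stood at 345 ± 10.8 CPM (ZT2), 383 ± 9.30 CPM (ZT8), 388 ± 12.5 CPM (ZT14) and 359 ± 10.2 CPM (ZT20) (SD, n = 3 each; edgeR adjusted p = 0.449). It passed in DESeq2. Slc17a7, the vesicular glutamate transporter VGLUT1, averaged 251 CPM. Of the metabotropic receptors of the same transmitters, 22 were tested and 0 passed in the 3 tools. The GABA-B receptor genes Gabbr1 and Gabbr2 led them with 149 and 118 CPM, and Grm3 had the lowest unadjusted p (edgeR adjusted p = 0.817).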

How the data were processed

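Polyadenylated RNA of 12 DRG libraries was measured. The tools HISAT2 2.2.1 and StringTie 2.1.5 and the build GRCm38.p6 are named in the submitters' processing notes; which step made the table was not stated there. The deposited values are non-whole estimated counts on a coverage scale (the most frequent value above 10 in a library, 16.4 to 17.2, was shared by genes of very different length). Read depth was therefore only approximated, as 47.9 to 67.1 in units of 1000000 reads per library, and counting error is not modelled exactly. Values were rounded for the tests. The 348 assembled loci without Ensembl ID (0.203% to 0.231% of a library) were left out. Symbols came from GENCODE M21.

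The test was edgeR 4.0.16's quasi-likelihood F test (R 4.3.3, filterByExpr, TMM, robust, 1 fit of 12 libraries), with DESeq2 1.42.0 and limma-trend (limma 3.58.1) as other tools; 12785 genes fell below the filter. The 24-h amplitude came from the log2 differences of opposite times. CPM are scaled by TMM, SD is over libraries. The same-numbered libraries of different times did not deviate together (r of deviations -0.065 to 0.078 in 18 pairs), so numbers were not taken as pairs. Scripts were tested on simulated data. Correlations used log2 CPM (prior count 2) and permutation tests of 100000 resamples.

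Members, gene lists and tests were chosen with earlier results of these data known. Results on some members and other genes are not reported here. Values per library are given for the 3 highest reported members of each family above 1 CPM. They are also given for reported members among the 5 of lowest unadjusted p, for Chrnb3 and Glra2 at ZT2 and ZT14 alone. Chrna3, Chrnb4, Chrna10 and Gabrg3 were chosen after their values were seen. Other genes named from the lists are the 2 highest of their list, that of lowest p, or those called by a tool. The Hox genes, the overlapping genes Art1, Adar and Grin1os, and the genes named by likeness lie outside these lists.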

Additional observations from a re-analysis of the deposited data

How the results depend on the processing

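In each of the 23 other settings, 0 members passed an adjusted p of 0.05 in every test run (182 counts), and the lowest adjusted p was 0.226. The settings were other filters, DESeq2 size factors, DESeq2, limma-trend, approximate reads, the muscle score as a covariate, the muscle-richest library of each time left out, only the 6 libraries compared, each library left out, the replicate block, and, chosen after seeing the data, Hoxc11 as a covariate. With the replicate block the count was 0 in all 8 tests, with lowest adjusted p-values between 0.744 and 0.981; 3 of the 12 libraries correlated best with their own number. Leaving out each library in turn gave counts of 0 to 0. For 26 members (Glra2 has no value under the filter of 1 CPM), uncalled fold changes took the other sign in some settings. This held for 42 of 597 values for ZT14 against ZT2 and for 24 of 597 for ZT20 against ZT8. In 0 of these was the fold change of the main fit over 2 SE. The unadjusted count for ZT20 against ZT2 lay between 2 members without ZT20 replicate 1 (4.08%, beside 4.92% of all genes) and 9 with Hoxc11 (18.4%, beside 8.06%). For ZT20 against ZT8 it ranged from 0 without ZT8 replicate 1 (4.09% of all genes) to 10 without ZT8 replicate 3 (20.4%, beside 9.83%). Without ZT8 replicate 3 it was 7 for any difference (14.3%, beside 8.13%) and 6 for the 24-h component (12.2%, beside 8.04%). With 3 libraries a time, and read depth known only approximately, members under 1 CPM are measured least precisely.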
